A study of Homo sapiens with 6 samples.

Results

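The genes described here are the human E2 ubiquitin-conjugating enzymes (gene symbols UBE2 followed by a letter and at most 1 digit) and the USP family of deubiquitinases (USP followed by a number). They were chosen by symbol alone from a table of 57773 genes, which gave 86 genes, 35 E2 and 51 USP. The E2 symbols include UBE2L2 and UBE2L4, which GENCODE 29 annotates as processed pseudogenes. The families are kept apart throughout. RNA sequencing measured their transcripts in HEK293 cells, an established line from human embryonic kidney, in 3 libraries whose genotype label is TRDMT1 knockdown and 3 whose genotype label is control, with no other treatment named. TRDMT1 is a methyltransferase of tRNA cytosines, and the comparison asks which transcripts differ when it is depleted. How the knockdown was made and whether its cells were 1 clone or a pool, the sources used here do not say. The protocol lists an RNA methylation kit, which works by bisulfite conversion, between ribosomal RNA depletion and a stranded library kit, and whether the deposited table was made from treated RNA is not stated. In the table itself, the columns of the libraries labelled knockdown have names with C and those of the libraries labelled control have names with TK.

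Ubiquitin is a small protein that cells attach to other proteins to send them to the proteasome or to alter their partners and position. An E1 enzyme activates ubiquitin, an E2 carries it on a cysteine, and an E3 ligase brings the E2 to the substrate, so that the E2 largely sets which kind of chain is built. Deubiquitinases cut ubiquitin off again, and the USP enzymes, cysteine proteases that are often large, are their most numerous family.

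Library totals were 36455950, 36737468 and 40088993 counts under the knockdown label and 26465603, 24776040 and 26802182 under the control label. For TRDMT1 the counts were 221, 225 and 245 under the knockdown label and 99, 93 and 80 under the control label, so that the targeted gene went against the labels. Its log2 fold change was 0.61 ± 0.21 (SE, adjusted p = 0.0705, edgeR), and the two-sided p of an exact permutation test was 0.1, which is the lowest a design of 3 against 3 can reach. The group labels may therefore be exchanged, and this was not tested. Every direction below is between libraries as labelled, and each decrease or increase would reverse if the labels were exchanged. Control replicate 2 stood apart, with correlations of 0.963 and 0.951 of log2 CPM with the other control libraries across genes, which are not independent replicates, against 0.989 between control replicates 1 and 3. Variation between replicates (edgeR's biological coefficient) came to 30.5% under the control label and 5.43% under the knockdown label. All 10 marker genes of HEK293, among them the keratins KRT8 and KRT18 and the neurofilament NEFL, had a mean of at least 1 RPKM. The lowest of them, PAX2, ranged from 0.91 to 1.85 RPKM. The 6 blood genes summed to between 0.01 and 0.21 RPKM per library and 4 endothelial genes to between 0.15 and 0.77. Of 5 fibroblast genes COL1A1 (0.55 to 4.8 RPKM) also had a mean of at least 1 RPKM, as did CDX2 (1.42 to 1.91) of 5 liver and gut genes.

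Of the 35 E2 genes 32 passed the filter on low counts, and of the 51 USP genes 45. Among the 32 tested E2 genes, 6 were lower and 1 was higher in the libraries labelled knockdown, which is 18.8% and 3.12%. Over all 17805 genes tested, 14.7% were called lower and 9.29% higher. Among the 45 tested USP genes, 11 were lower and 7 higher, 24.4% and 15.6%. A gene is called here when its p-value from edgeR's quasi-likelihood test, adjusted over all genes tested, is under 0.05. The median log2 fold change, in the libraries labelled knockdown minus those labelled control, was −0.25 over the E2 genes, 0.0046 over the USP genes and −0.04 over all genes. The USP family thus spread to both sides, from −2.49 to 0.98, and the E2 family ran from −1.54 to 0.69. Changes of at least 2-fold among called genes were all decreases under the knockdown label, 8 in the USP family and 2 in the E2 family. The E2 value of −1.54 is that of UBE2G2, which rested on only 6 to 14 counts per library.

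**Figure D1:**
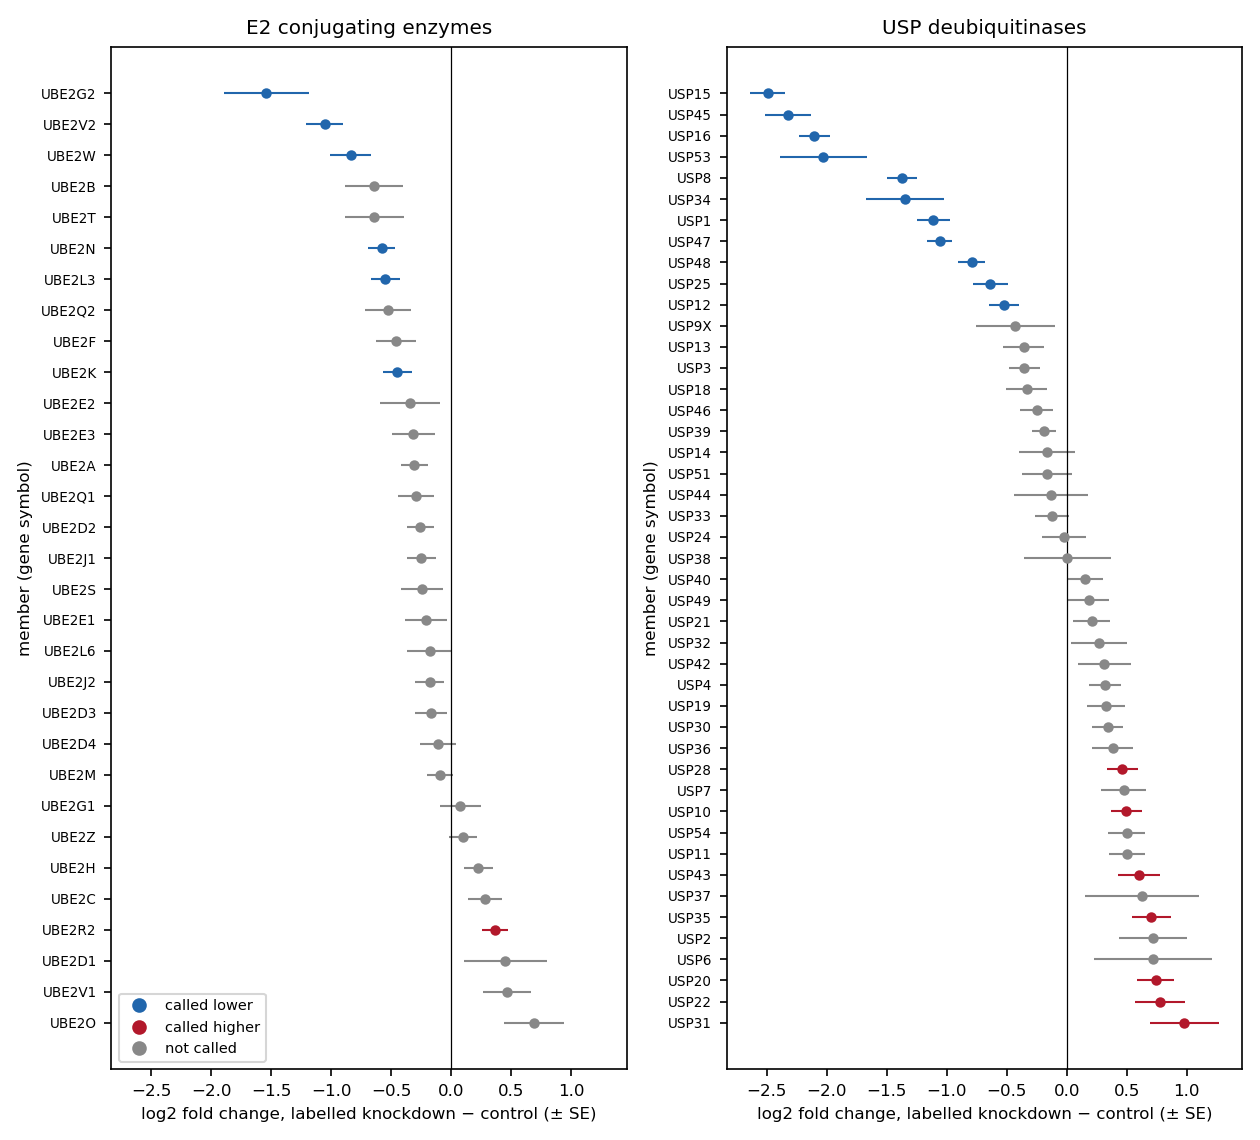
Log2 fold change of the tested genes, 1 E2 gene left out (libraries labelled knockdown minus those labelled control, ± SE) in the E2 family (left) and the USP family (right), sorted by value and coloured by call. The USP values run from −2.49 for USP15 to 0.98 for USP31, while the E2 values lie between −1.54 and 0.69.

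These splits depended on how counts were scaled and tested, and on single libraries. With RLE or upper quartile scaling factors in place of TMM, all 25 genes called kept their call. When libraries were scaled by their plain totals, which raised the median of all genes from −0.04 to 0.13, 3 E2 genes were lower and 4 higher, and 8 USP genes were lower and 4 higher, against 9.26% and 10.6% of all genes. On log2(RPKM + 1) the E2 counts were 1 and 4 and the USP counts 7 and 7 (all genes 8.58% and 12.9%), and on log2(RPKM + 0.1) they were 1 and 4 and 8 and 4 (8.59% and 11.4%). DESeq2 gave 6 and 2 E2 genes and 11 and 10 USP genes (15.2% and 11.6%). With voom and quality weights, which give a deviating library less weight, 16 E2 genes were lower and 6 higher, and 21 USP genes were lower and 18 higher (29.7% and 27.6%). Testing nearly every gene with a count gave 3 and 0 E2 genes and 9 and 7 USP genes (6.4% and 5.27%).

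Single libraries also moved the counts. Without control replicate 2 they rose to 11 lower and 5 higher of 32 E2 genes and to 21 lower and 15 higher of 46 USP genes, against 25.6% and 22.9% of all genes. Without control replicate 1 they were 1 and 0 E2 genes and 7 and 0 USP genes (7.32% and 3.64%), and without control replicate 3 they were 10 and 1 and 11 and 9 (16.8% and 12.4%). Leaving out a library labelled knockdown gave 1 and 0 E2 genes each time. It gave 7 and 0 USP genes without replicate 1 (5.12% and 1.87% of all genes), 8 and 0 without replicate 2 (5.43% and 1.94%) and 7 and 0 without replicate 3 (4.96% and 1.71%). With the replicate number as a block, 3 and 0 E2 genes and 9 and 3 USP genes were called (10.5% and 6.21%). All 25 genes called kept their call without control replicate 2.

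The E2 genes that build non-degradative chains included the clearest E2 decrease. UBE2V2 (ENSG00000169139) is a catalytically inactive E2 variant that pairs with UBE2N to make the ubiquitin chains used in DNA damage tolerance. It stood at 23.9, 32.5 and 29.9 CPM (counts scaled to library size, after TMM) in the libraries labelled knockdown and at 65.1, 58.2 and 55.8 CPM under the control label. All 3 libraries labelled knockdown were thus below all 3 labelled control, 2.07-fold by the means (log2 fold change −1.05 ± 0.15, adjusted p = 0.00496, edgeR). UBE2N (ENSG00000177889), its active partner, stood at 105, 109 and 98.1 CPM against 166, 149 and 152 CPM. The groups did not overlap here either (−0.58 ± 0.11, adjusted p = 0.0123). UBE2V1, the other variant that pairs with UBE2N, stood at 0.46 ± 0.20 and was not called (adjusted p = 0.129).

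With trends of each library in transcript length and base composition removed, a setting explained further below, UBE2V2 was no longer called (−0.19 ± 0.12, adjusted p = 0.29). UBE2N was (−0.48, adjusted p = 0.0151). UBE2N shares 39.5% of its exonic bases with NUDT4 on the opposite strand in GENCODE 29, and UBE2V1 shares 42.9% with the read-through gene TMEM189-UBE2V1. Other genes described below also share exonic bases on the opposite strand, among them USP3 (22.7%), UBE2A (18.1%), USP34 (18%) and USP22 (13.2%). Whether counting used strand is unknown here, so reads of such pairs cannot be told apart. The shares are of GENCODE 29 exons, and the annotation used for counting is not given. UBE2V1 also has 15 annotated pseudogenes, UBE2Q2 8, and UBE2V2, UBE2C and UBE2D3 4 each, so that counts of these genes are uncertain.

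Of 9 E2 genes that mostly start chains, 2 were lower and 7 were not called, against 14.7% lower over all genes. UBE2L3 (ENSG00000185651) charges HECT and RBR ligases, which take the ubiquitin onto themselves before passing it on. It stood at 199, 195 and 186 CPM under the knockdown label and at 301, 290.1 and 257 CPM under the control label, with no overlap (−0.55 ± 0.12, adjusted p = 0.0191, edgeR). UBE2W (ENSG00000104343), which attaches ubiquitin to the amino terminus of proteins, stood at 7.72, 10.7 and 10.9 CPM against 17.1, 18.3 and 17.05 CPM. Its groups did not overlap (−0.84 ± 0.17, adjusted p = 0.0152), and it was not called with the trends removed (−0.48, adjusted p = 0.093). The UBE2D and UBE2E genes, the broadly used initiators, lay between −0.34 for UBE2E2 and 0.45 for UBE2D1. With all libraries and no trends removed, none of these 7 was called by edgeR or DESeq2 or had an unadjusted p under 0.05. UBE2D1 was called higher with the trends removed (1.29 ± 0.31, adjusted p = 0.0295, edgeR). Without control replicate 2, UBE2D3 was called lower (−0.26, adjusted p = 0.0245, edgeR). UBE2D2 had one of the more precise values (−0.26 ± 0.11, adjusted p = 0.142).

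Among 6 E2 genes known for degradative chains or for work at the endoplasmic reticulum, 2 were lower and 1 was higher (over all genes 14.7% and 9.29%). UBE2K (ENSG00000078140), which extends chains that mark proteins for the proteasome, stood at 69.8, 78.7 and 79.2 CPM against 114, 95.5 and 102 CPM, with no overlap (−0.45 ± 0.12, adjusted p = 0.0364, edgeR). With the trends removed it stood at 0.028 ± 0.088. UBE2R2 (ENSG00000107341), a partner of cullin-RING ligases, was the E2 gene that moved the other way, at 123, 111 and 112 CPM against 89.1, 93.4 and 86.0 CPM. All 3 libraries labelled knockdown were above those labelled control, 1.29-fold by the means (0.37 ± 0.11, adjusted p = 0.0492). UBE2G2 (ENSG00000184787), the E2 of degradation from the endoplasmic reticulum, was called on few reads, 6 to 14 counts per library. It stood at 0.155, 0.231 and 0.140 CPM against 0.455, 0.597 and 0.509 CPM (−1.54 ± 0.35, adjusted p = 0.0208). UBE2J1 (−0.25 ± 0.12, adjusted p = 0.163) and UBE2J2 (−0.18 ± 0.12, adjusted p = 0.302), anchored in the same membrane, were not called.

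**Figure D2:**
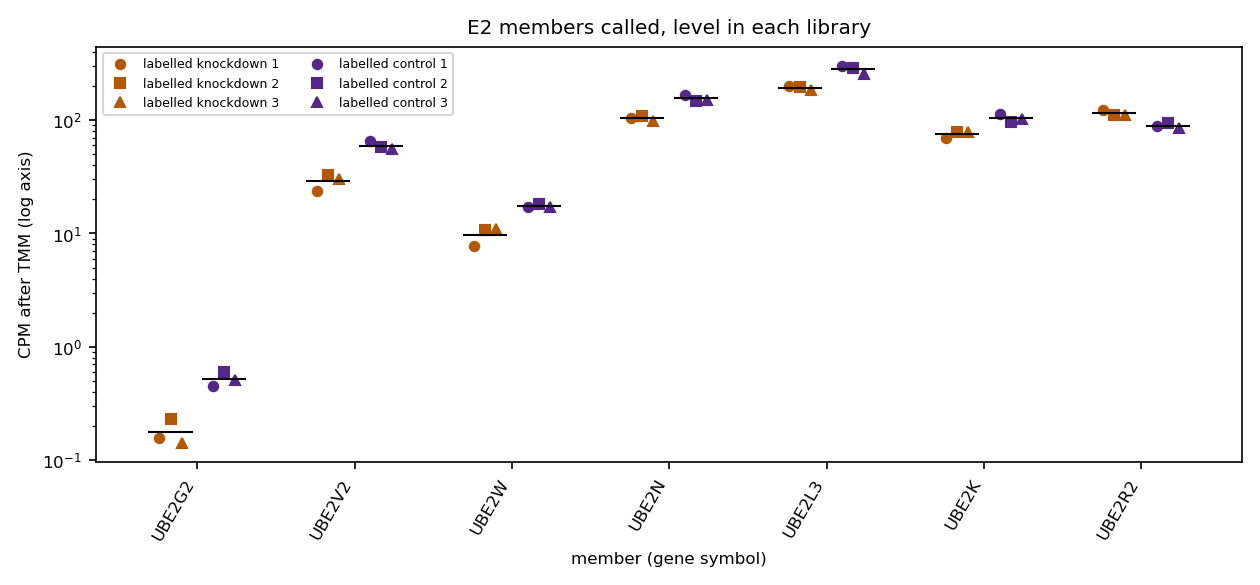
Level of the 7 called E2 genes in each library, in CPM after TMM on a log axis; symbols mark replicates and black bars the group means. In each gene the libraries labelled knockdown (orange) and labelled control (purple) do not overlap, and UBE2R2 alone is higher in the libraries labelled knockdown.

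The 3 most abundant E2 genes per length were not called, while UBE2L3, called lower, had a mean of 61.4 RPKM. UBE2S, which extends chains for the anaphase-promoting complex in mitosis, had the highest level of the family, with a mean of 412 RPKM over the 6 libraries. It stood at 442, 495 and 484 CPM under the knockdown label and at 624, 613 and 449 CPM under the control label, so that the groups overlapped (−0.25 ± 0.17, adjusted p = 0.331). UBE2M, the E2 of the ubiquitin-like protein NEDD8, had a mean of 72.9 RPKM. It stood at 126, 131 and 130 CPM against 143, 143 and 127 CPM (−0.09 ± 0.11, adjusted p = 0.567), again overlapping. UBE2T, the E2 of the Fanconi anemia pathway, had a mean of 66.9 RPKM. At 59.0, 58.1 and 54.5 CPM against 75.1, 127 and 65.7 CPM its groups did not overlap, and control replicate 2 was the highest (−0.64 ± 0.25, adjusted p = 0.102).

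None of the 5 E2 genes of cell cycle and repair was called by edgeR or DESeq2 with all libraries and no trends removed. Of them 3 had an unadjusted p under 0.05, all lower. Of these, UBE2A, a partner of the repair ligase RAD18, stood at −0.31 ± 0.11 (adjusted p = 0.0865) and was called higher with the trends removed (0.55 ± 0.12, adjusted p = 0.022). None of the 5 E2 genes for ubiquitin-like proteins was called by edgeR or DESeq2 either, with 1 at an unadjusted p under 0.05. Among them UBE2Z stood at 0.09 ± 0.12. UBE2M was called lower with the trends removed (−0.37, adjusted p = 0.038). In all, the groups did not overlap for 14 tested E2 genes that were below and 5 that were above, 43.8% and 15.6%, against 26% and 23.9% of all genes.

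The USP family held larger decreases. USP15 (ENSG00000135655), a partner of the COP9 signalosome that also acts on TGF-beta signalling, had the largest of the tested genes in both families. It stood at 7.95, 9.32 and 8.09 CPM under the knockdown label and at 50.2, 42.4 and 50.1 CPM under the control label. The means differed 5.63-fold with no overlap (−2.49 ± 0.14, adjusted p = 0.000283, edgeR). Of the 9 USP genes of signalling 4 were lower, USP15 included, with 0 higher by edgeR or DESeq2 and 1 higher at an unadjusted p under 0.05 (over all genes 14.7% and 9.29% were lower and higher by edgeR). USP34, a very large enzyme linked to Wnt signalling, stood at −1.35 ± 0.33, USP25 at −0.64 ± 0.15 and USP12 at −0.52 ± 0.12. USP34 rested on a wide spread among the libraries labelled control, with 82.3 and 116 CPM in replicates 1 and 3 and 43.1 CPM in replicate 2. USP25 (−0.096) and USP12 (−0.046) were not called with the trends removed.

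USP9X, the deubiquitinase of many substrates from cell survival to polarity, was among the 3 most abundant USP genes, with a mean of 52.2 RPKM. It stood at 641, 602 and 597 CPM under the knockdown label and at 923, 438 and 1115 CPM under the control label. The groups overlapped, with control replicate 2 below every other library (−0.43 ± 0.33, adjusted p = 0.365). Without control replicate 2, USP9X was called lower (−0.73, adjusted p = 0.000198). That library was the lowest of the 3 labelled control in 32 of the 45 tested USP genes and the highest in 8, whereas among the 32 E2 genes it was the lowest in 9 and the highest in 16.

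In DNA repair and the cell cycle the USP genes went both ways, 4 of 10 lower and 2 higher (over all genes 14.7% and 9.29%). USP45 (ENSG00000123552), which acts on the nucleotide excision repair factor ERCC1, stood at 4.25, 6.66 and 5.89 CPM against 28.2, 27.5 and 28.2 CPM, 4.99-fold lower by the means (−2.32 ± 0.19, adjusted p = 0.000644, edgeR). No library labelled knockdown came near those labelled control. USP1 (ENSG00000162607), which removes ubiquitin from FANCD2 and PCNA, stood at 44.9, 57.4 and 54.6 CPM against 122, 104 and 114 CPM. The groups did not overlap (−1.11 ± 0.14, adjusted p = 0.00267). USP47 (ENSG00000170242), known from base excision repair, stood at 45.6, 42.0 and 43.8 CPM against 92.6, 91.7 and 89.4 CPM, with little spread in either group (−1.06 ± 0.11, adjusted p = 0.00117). USP48 (ENSG00000090686) stood at 73.9, 67.1 and 68.5 CPM against 127, 119 and 117 CPM, again without overlap (−0.79 ± 0.11, adjusted p = 0.00388).

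USP28 and USP10 rose in the same group of genes. USP28, which stabilizes MYC and binds 53BP1, stood at 84.9, 78.3 and 77.2 CPM under the knockdown label and at 51.0, 63.7 and 59.7 CPM under the control label (0.46 ± 0.13, adjusted p = 0.0383). USP10, a partner of the stress granule protein G3BP1 and a deubiquitinase of p53, stood at 115, 112 and 115 CPM against 86.6, 69.5 and 86.4 CPM (0.50 ± 0.13, adjusted p = 0.0305). All libraries labelled knockdown were above those labelled control in both genes. USP11, which takes part in homologous recombination and had a mean of 55.2 RPKM, just missed the threshold (0.50 ± 0.15, adjusted p = 0.0512) at 327, 329 and 349 CPM against 237, 199 and 274 CPM. The next gene outside it was USP54 (adjusted p = 0.0572), and the last one inside was USP31 (adjusted p = 0.048).

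Among 7 tested USP genes that act on histones, 1 was lower and 1 higher, a share near that over all genes (14.7% and 9.29%). USP16 (ENSG00000156256), which removes ubiquitin from a core histone before mitosis, stood at 30.3, 33.9 and 30.9 CPM under the knockdown label and at 139, 148 and 121 CPM under the control label. This was a 4.29-fold difference without overlap (−2.10 ± 0.13, adjusted p = 0.000283, edgeR). USP22, the deubiquitinase of the SAGA coactivator and the most abundant USP gene per length with a mean of 65.6 RPKM, moved the other way. It stood at 564, 535 and 550.3 CPM against 344, 229 and 388 CPM, 1.72-fold higher by the means (0.78 ± 0.21, adjusted p = 0.0369). With the trends removed USP16 stood at −0.96 ± 0.15 and was still called, while USP22 was not (0.52, adjusted p = 0.0558). USP3, which also acts on histones, stood at −0.35 ± 0.13 (adjusted p = 0.0893).

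Of 7 USP genes of membranes and organelles, 1 was lower and 1 higher, also near the share over all genes (14.7% and 9.29%). USP8 (ENSG00000138592), which rescues receptors from lysosomal sorting at the endosome, stood at 23.3, 25.2 and 23.9 CPM against 65.1, 55.8 and 66.6 CPM. The groups were well apart, 2.59-fold by the means (−1.37 ± 0.13, adjusted p = 0.000859, edgeR). USP20, which acts in receptor recycling, stood at 58.6, 61.0 and 66.2 CPM against 38.6, 30.2 and 42.5 CPM, with all libraries labelled knockdown above (0.74 ± 0.16, adjusted p = 0.0167). USP30 of the mitochondrial outer membrane (0.34 ± 0.13, adjusted p = 0.0931) and USP33 (−0.12 ± 0.14, adjusted p = 0.555) were not called.

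USP53 (ENSG00000145390), a protein of tight junctions, was lower at 3.65, 6.15 and 4.68 CPM against 23.3, 10.5 and 25.0 CPM, with control replicate 2 nearest to the libraries labelled knockdown (−2.03 ± 0.36, adjusted p = 0.00991, edgeR). Of the 6 tested USP genes without a role given here, 3 were higher, against 9.29% over all genes. USP31 stood at 29.2, 26.5 and 28.0 CPM against 14.8, 8.26 and 19.4 CPM, the largest increase among the tested genes of both families (0.98 ± 0.29, adjusted p = 0.048). USP35 stood at 12.3, 11.3 and 11.8 CPM against 6.75, 6.47 and 8.47 CPM (0.71 ± 0.16, adjusted p = 0.0212). USP43 stood at 11.4, 11.3 and 12.7 CPM against 8.42, 6.22 and 8.58 CPM (0.60 ± 0.17, adjusted p = 0.0448). All 3 were above in every library labelled knockdown. USP35 (adjusted p = 0.0884) and USP43 (adjusted p = 0.119) were not called with the trends removed. USP6 and USP32, and USP18 and USP41, are close copies of each other, so that their reads may be split. USP31 shares 23% of its exonic bases with another annotated gene on the same strand.

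**Figure D3:**
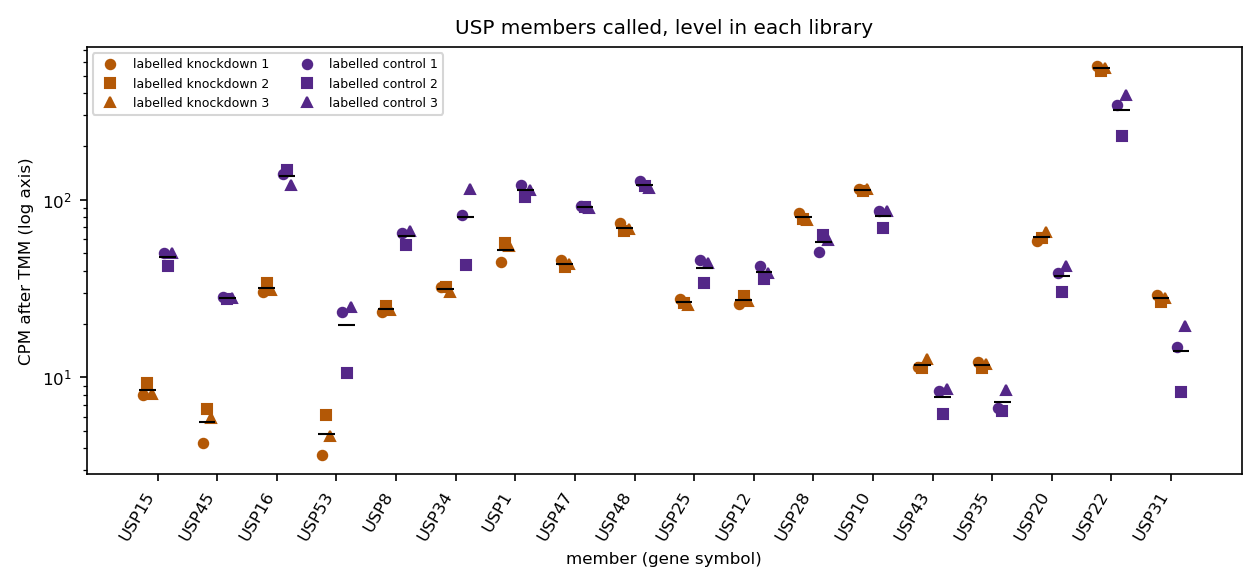
Level of the 18 called USP genes in each library, in CPM after TMM on a log axis, ordered by log2 fold change; symbols mark replicates and black bars the group means. USP15, USP45 and USP16 lie furthest apart, and control replicate 2 (purple squares) lies apart from the other control libraries in USP53, USP34 and USP31.

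The 27 USP genes that were not called included several with precise values. USP39, a splicing factor that has lost its protease activity, stood at −0.19 ± 0.10 (adjusted p = 0.206), USP46 at −0.25 ± 0.13 and USP4 at 0.32 ± 0.14. Without control replicate 2, USP39 (adjusted p = 0.0495) and USP46 (adjusted p = 0.00607) were called lower and USP4 was not called (adjusted p = 0.063). USP14, which trims ubiquitin at the proteasome, had a wider error (−0.16 ± 0.23) and was called lower without that library (−0.39, adjusted p = 0.0021). With the trends removed and all libraries kept, USP14 had the opposite sign and was not called (0.43 ± 0.18, adjusted p = 0.138, edgeR). In all, 13 tested USP genes were below and 16 above without overlap, 28.9% and 35.6%, against 26% and 23.9% of all genes.

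In the family 6 called genes, all decreases, were called under every 1 of the 20 other settings tried. These were USP15, USP16, USP45, USP8, USP47 and USP48, with adjusted p of at most 0.0449 in any of these settings. USP1 was called in 19 of the 20 and UBE2V2 in 17. Each other called E2 gene was called in 8 to 12, UBE2G2 out of 19 settings. The 7 USP increases were called in 8 to 15 of the 20.

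The called USP genes differed in a feature that their symbols do not encode, the share of adenine in the transcript. The 11 lower USP genes had a median of 31.4% adenine in their longest GENCODE 29 transcript, the 27 that were not called 27.3% and the 7 higher ones 22.0%. To show what this means in letters, the first 120 coding bases are printed for the 2 lower USP genes with the most adenine and the 2 higher ones with the least, from GENCODE 29, with adenine in capitals.
USP16: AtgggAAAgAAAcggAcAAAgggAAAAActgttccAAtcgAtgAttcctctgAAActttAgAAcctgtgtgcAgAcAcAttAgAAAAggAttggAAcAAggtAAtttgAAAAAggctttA
USP8: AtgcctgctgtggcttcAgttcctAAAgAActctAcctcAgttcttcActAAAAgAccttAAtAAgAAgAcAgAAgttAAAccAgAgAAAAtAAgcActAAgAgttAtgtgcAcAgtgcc
USP35: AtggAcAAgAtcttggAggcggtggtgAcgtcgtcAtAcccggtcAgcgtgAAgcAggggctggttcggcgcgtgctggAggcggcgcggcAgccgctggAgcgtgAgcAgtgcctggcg
USP20: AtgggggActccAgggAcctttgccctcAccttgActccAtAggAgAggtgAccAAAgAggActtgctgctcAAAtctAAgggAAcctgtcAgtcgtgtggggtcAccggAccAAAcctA
These windows hold 48 adenines in USP16 and 43 in USP8, against 18 in USP35 and 30 in USP20. Over the whole coding sequence adenine made up 36.7% of USP16 and 35.7% of USP8, against 19.1% of USP35 and 21.4% of USP20. GC share of their longest transcripts was 35.6% in USP16 and 40.3% in USP8, against 61.3% in USP35 and 60.3% in USP20. Whether adenine or GC share goes with the fold change was not tested.

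Across the 45 tested USP genes, log2 fold change and adenine share had a Spearman correlation of −0.73 (Pearson −0.70). Across the 32 E2 genes Spearman was −0.40 (Pearson −0.33), and across the 17302 tested genes with a known composition it was −0.41 (Pearson −0.41). These are descriptions, since all points share the same 6 libraries. The tested genes were divided into 3 equal classes by adenine share. In the class with the most adenine, from 28.17% upwards, 31.6% of all genes were lower and 2.98% higher. That class held 23 USP genes, of which 11 were lower and 2 higher. It held all 11 lower USP genes. In the class with the least adenine, 8 USP genes were tested and 4 of them were higher, against 16.1% higher and 3.48% lower among all genes there. The classes were chosen after the values had been seen. Exonic length followed the fold change less, with a Spearman correlation of −0.14 in the USP family and 0.04 in the E2 family.

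**Figure D4:**
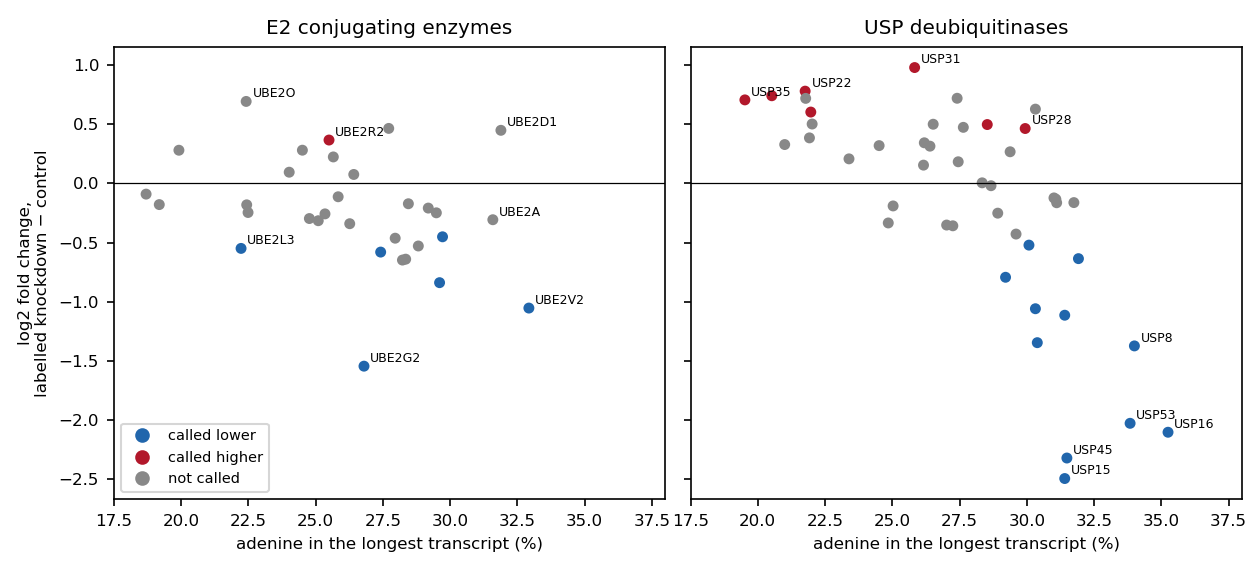
Log2 fold change (libraries labelled knockdown minus those labelled control) against the percentage of adenine in the longest transcript, for the tested E2 genes (left) and USP genes (right), coloured by call. The 11 lower USP genes all lie above 28.17% adenine, and the higher ones have a median of 22.0%.

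Trends of each library with exonic length, adenine and GC share were therefore removed as another setting. Of the 11 lower USP genes 9 were still called and of the 7 higher ones 4, and USP13 was lower in addition. In that setting 11.2% of all genes were lower and 9.2% higher. Log2 fold change and adenine share still had a Spearman correlation of −0.38 across the 45 USP genes there. Across the 32 E2 genes it was 0.28, opposite in sign to that without the removal. The setting thus did not fully remove the relation with adenine within these families. With the replicate block as well, 1 E2 gene was lower and 1 higher and 7 USP genes were lower and 2 higher, against 6.61% and 4.76%. With control replicate 2 left out instead, 9 and 7 E2 genes and 14 and 15 USP genes were called, against 24% and 23.3%. With the length trend alone removed, 6 and 3 E2 genes and 11 and 11 USP genes were called, against 15.1% and 13.5%. The values that follow are with length and composition trends both removed, all libraries kept and no replicate block. Among the decreases, USP15 stood at −1.89 ± 0.12, USP45 at −1.72 ± 0.18 and USP53 at −1.06 ± 0.24. USP1 stood at −0.59 ± 0.12 and USP8 at −0.58 ± 0.09. Each of these decreases was smaller than without the removal. USP47 stood at −0.90 ± 0.14 and USP48 at −0.84 ± 0.13. In the same setting 3 of the 6 lower E2 genes were still called, UBE2N, UBE2L3 and UBE2G2, as was the increase of UBE2R2. UBE2M and UBE2J2 were lower in addition, and UBE2A and UBE2D1 higher. The part of base composition in the differences was not tested beyond this.

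The called increases also shared chromosomes. Of 8 tested USP genes on chromosomes 9, 11 and 16, 5 were higher (USP20, USP35, USP10, USP28 and USP31) and 1 was lower (USP47), and UBE2R2 lies on chromosome 9. Of all 2019 tested protein-coding genes on these chromosomes 31.9% were higher and 4.9% lower, against 6.56% and 17.6% of the 11877 on the others. The median log2 fold change over all tested protein-coding genes was 0.28 on chromosome 9, 0.31 on chromosome 11 and 0.53 on chromosome 16. Chromosome 20 had a like median of 0.28, with 22.9% of its genes higher, and held no tested USP gene and 2 E2 genes that were not called, UBE2V1 and UBE2C. Of the 37 tested USP genes on other chromosomes, 2 were higher and 10 lower. Chromosomes are those of GENCODE 29, and these 3 were picked after their values were seen. The part of the chromosome in these increases was not tested.

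Promoters are given for a decrease and an increase among the USP genes. For 39 of the 51 USP genes and 26 of the 35 E2 genes, RefSeq (GRCh38.p14) gave the 250 bases before the start of transcription. They are shown for the USP gene with the largest decrease, USP15 (chr12:62260154-62260403, plus strand), and for the most abundant one that rose, USP22 (chr17:21043012-21043261, minus strand), 5′ to 3′ with GC boxes in capitals.
USP15: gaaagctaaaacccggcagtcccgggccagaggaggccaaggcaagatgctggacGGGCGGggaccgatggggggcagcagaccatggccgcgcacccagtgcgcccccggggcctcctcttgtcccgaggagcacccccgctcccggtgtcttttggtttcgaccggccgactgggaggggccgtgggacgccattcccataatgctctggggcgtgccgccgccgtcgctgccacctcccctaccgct
USP22: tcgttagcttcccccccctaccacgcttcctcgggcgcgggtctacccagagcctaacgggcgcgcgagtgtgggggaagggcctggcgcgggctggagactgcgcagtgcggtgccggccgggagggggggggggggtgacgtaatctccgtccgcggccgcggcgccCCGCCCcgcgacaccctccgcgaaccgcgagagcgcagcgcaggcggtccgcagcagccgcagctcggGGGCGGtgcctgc
The GC box, searched as GGGCGG on both strands, occurred once in USP15 and 2 times in USP22. It was present in 8 of 10 promoters of lower USP genes and in all 5 found for higher ones, in 76.9% of USP and 84.6% of E2 promoters, and in 42.6% of all 35116 promoters of that length. The families were counted by the first promoter listed for each symbol. The set of all promoters holds every one listed, of genes tested or not, so that these shares are not directly comparable. CCAAT on both strands was in 25.6% of USP promoters, 30.8% of E2 promoters and 32% of all. Neither promoter shown held CCAAT. The ETS core CCGGAA was in 23.1% of USP promoters, 15.4% of E2 promoters and 14.5% of all, and neither promoter shown held it. It was in 2 of 10 promoters of lower USP genes and 3 of 5 of higher ones. The CRE, searched as TGACGTCA, was in 0 of the 39 USP promoters and 1.65% of all. The E-box CACGTG was in 5.13% of USP promoters and 6.34% of all. Such matches are descriptions of letters and not binding sites.

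Among the 86 genes 9 were not tested because of low counts. UBE2L2, a pseudogene, had no count in any library, which allows up to 0.0702 to 0.149 CPM per library at a floor of 3 counts and covers counting error only. UBE2L4 (1 to 5 counts), also a pseudogene, and UBE2U (0 to 2), USP26 (0 to 5), USP27X (5 to 11), USP29 (0 to 3), USP41 (2 to 8), USP5 (0 to 8) and USP50 (0 to 3) were near 0. USP5 takes apart free ubiquitin chains in most human cells, and UBA1, the main ubiquitin E1 that dividing cells need, also had only 2 to 22 counts per library. A count near 0 for a coding gene in this table therefore does not show that it is silent.

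The rest of the pathway is given from lists chosen by function. Of 8 tested E1 enzymes, 4 were lower and none higher by edgeR, by DESeq2 or at an unadjusted p under 0.05, with a median of −0.64 (over all genes 14.7% and 9.29% were lower and higher). They included both subunits of the NEDD8 E1, NAE1 (57.5 ± 2.42 against 97.1 ± 10.3 CPM, SD, n = 3 each, −0.76 ± 0.12, adjusted p = 0.00711, edgeR) and UBA3 (−0.63), and the alternative ubiquitin E1 UBA6 (−1.40), which charges UBE2Z. With the trends removed 1 of the 8 was lower, against 11.2% of all genes. Of 18 genes of SUMO, NEDD8 and other ubiquitin-like proteins with their proteases and ligases, 9 were lower, against 14.7% of all genes, with a median of −0.64, and none was higher by edgeR, by DESeq2 or at an unadjusted p under 0.05. The SUMO proteases SENP7 (−1.96 ± 0.17, adjusted p = 0.0007) and SENP6 (−1.85 ± 0.17) and the modifier SUMO3 (−0.99 ± 0.12) had the smallest p-values. With the trends removed 7 were lower and 1 higher, against 11.2% and 9.2%. The 4 genes that encode ubiquitin itself were not called by edgeR, with 1 at an unadjusted p under 0.05 and 1 called by DESeq2. Among them UBB stood at −0.14 ± 0.18.

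Deubiquitinases outside the USP symbols were counted by class, beside 14.7% lower and 9.29% higher over all genes. Of 4 UCH enzymes 2 were lower, UCHL3 (−1.52 ± 0.22, adjusted p = 0.0047, edgeR) and UCHL5 (−0.997), and of 15 OTU enzymes 3, led by OTUD6B (−2.03 ± 0.26). Of 11 JAMM-domain proteins 4 were lower, with MYSM1 (−1.86 ± 0.21), COPS5 (−0.62) and PSMD14 (−0.68) first. By edgeR none of these 3 classes had a higher gene. DESeq2 called 3 OTU and 2 JAMM genes higher (11.6% of all genes), as many as had an unadjusted p under 0.05. Among 7 Josephin and MINDY enzymes, ATXN3 was lower (−0.74) and FAM63A higher (0.997). The USP-like CYLD (60.3 ± 2.34 against 33.4 ± 2.12 CPM, 0.85 ± 0.11) and PAN2 (0.67) were higher and USPL1 lower (−1.02). Of 8 cofactors of USP enzymes 2 were lower, ENY2 (−1.29), of the module of USP22, and WDR20 (−0.62), a partner of USP12 and USP46. WDR48, which activates USP1, USP12 and USP46, stood at −0.25 ± 0.10 (adjusted p = 0.116).

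The ligase lists, which hold the partners of the E2 enzymes, were mixed. Of 22 cullin-RING core genes 8 were lower and 3 higher (median −0.30), against 14.7% and 9.29% of all genes. DCUN1D1, which helps attach NEDD8 to cullins, stood at 9.26 ± 0.89 against 36.8 ± 3.29 CPM (−1.99 ± 0.14, adjusted p = 0.000424, edgeR), CUL5 at −1.32 ± 0.14 and CUL7 at 1.03 ± 0.14. Of 16 subunits and activators of the anaphase-promoting complex, the ligase served by UBE2C and UBE2S, 5 were lower, with ANAPC4 at −1.20, ANAPC13 at −1.31 and CDC16 at −0.61. By edgeR none was higher, and 1 was by DESeq2 (11.6% of all genes), as at an unadjusted p under 0.05. Of 28 HECT ligases 5 were lower and 1 higher, with NEDD4 at −0.79 ± 0.11, HECTD2 at −1.39 and WWP2 at 1.12, and a median of 0.10. The split was 5 and 3 by DESeq2 (15.2% and 11.6% of all genes) and 5 and 5 with the trends removed (11.2% and 9.2%). At an unadjusted p under 0.05 it was 7 and 6. Of 13 RBR ligases, which UBE2L3 serves, 2 were higher, RNF144B (0.91) and RNF144A (0.45), and none was lower by edgeR. At an unadjusted p under 0.05, 3 were lower, and 1 was by DESeq2 (15.2% of all genes).

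**Figure D5:**
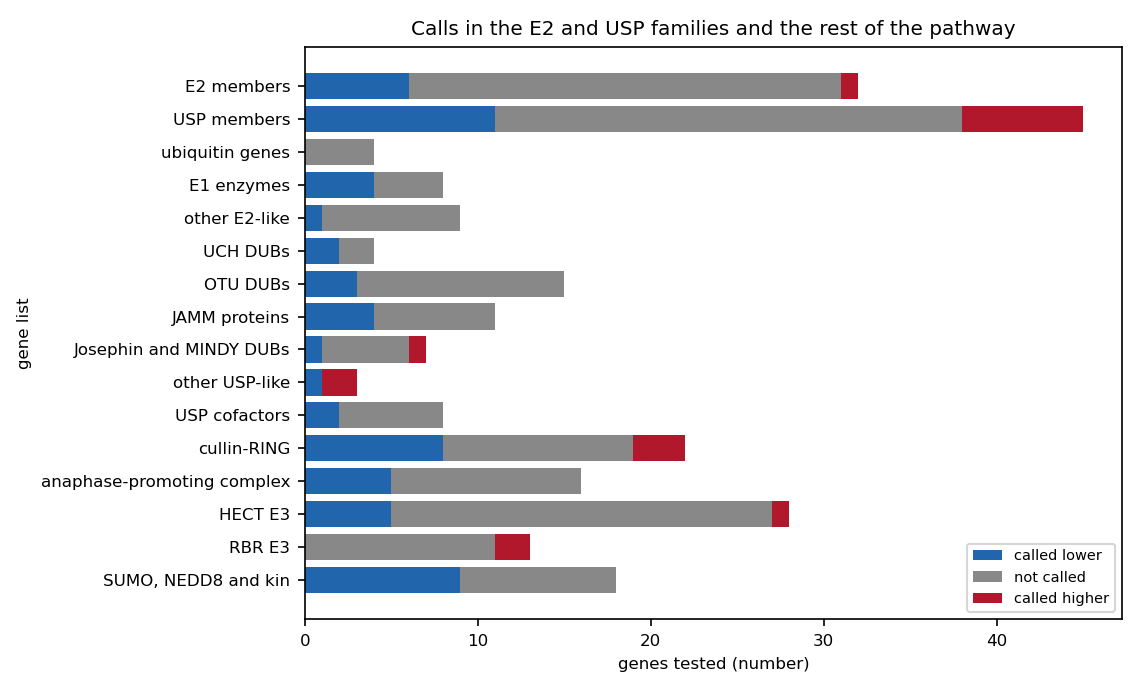
Number of tested genes called lower, not called or called higher in the E2 and USP families and in each list of the pathway (adjusted p under 0.05, edgeR). The USP bar has 7 higher genes of 45, while all genes called in the E1 list and in the SUMO and NEDD8 list are lower.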

How the data were processed

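Total RNA of 6 HEK293 libraries was sequenced, 3 per group. The deposited table gave raw counts per gene and RPKM values, both made by the authors, per the file headers. The RPKM equalled count over exonic length and library total within 0.006 for 100% of values. Per the submitters' processing notes, the build was hg19 and HTSeq 0.6.1 and bcl2fastq 2.17.1.14 are among the tools. The role of each tool, the aligner, the strand setting and the annotation are not given in the sources used here. Columns were tied to samples by the second name in each description, and no per-sample column was left over.

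The test was the quasi-likelihood F test of edgeR 4.0.16 (R 4.3.3, TMM, filterByExpr, robust), fitted on all 17805 genes that passed the filter with both groups sharing the estimate of spread, and adjusted by Benjamini-Hochberg over all of them. The fit was tested on simulated data. Fold changes are log2, libraries labelled knockdown minus libraries labelled control, ± SE. To remove length and composition trends, a smooth curve was fitted in each library (mgcv 1.9.3) and entered as an offset, with composition of the longest GENCODE 29 transcript, known for 97.2% of tested genes. DESeq2 1.42.0, limma 3.58.1 and voom stood beside it. Counts of genes at an unadjusted p under 0.05 have no share over all genes beside them and cannot be set against one. The labels do not say that libraries came from separate cultures, and the p-values then reflect only how far these libraries spread, possibly for technical reasons. No pair of libraries agreed within sampling noise.

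Per-library values are given for the 8 called genes with the smallest p in each family, for the 3 with the highest mean RPKM and for called genes that moved against the majority of their family. Up to 6 genes per family that were not called are named by their smallest SE, and up to 3 called genes per list by smallest p. Any others were chosen after their values were seen. The members and lists were chosen with earlier results of these data known. Values of a few single genes are not reported here.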

Additional observations from a re-analysis of the deposited data

How the results depend on the processing

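Besides the fit described, 20 settings were tried, 1 of them (composition and length trends removed without control replicate 2) chosen after seeing the data. E2 decreases numbered 6. They were 3 with plain totals, 3 without the filter, 1 on log2(RPKM + 1), 1 on log2(RPKM + 0.1), 16 with voom quality weights, and 1 to 11 when 1 library was left out. E2 increases numbered 1. They were 4 with plain totals, 0 without the filter, 2 by DESeq2, 4 on either RPKM scale, 6 with voom, 3 with the length trend removed, 3 with length and composition trends removed, 7 with these removed and control replicate 2 left out, and 0 to 5 when 1 library was left out. USP decreases numbered 11. They were 7 on log2(RPKM + 1), 21 with voom and 7 to 21 when 1 library was left out. USP increases numbered 7. They were 4 with plain totals, 4 on log2(RPKM + 0.1), 18 with voom, 11 with the length trend removed, 4 with both trends removed, 15 with both removed and control replicate 2 left out, and 0 to 15 when 1 library was left out. The causes were not tested. Fits with a library left out rest on fewer samples, and their counts went both up and down.

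Same-numbered libraries did not deviate together (correlations of deviations −0.04, 0.057 and 0.001), and not every library correlated best with its own number. No pairing by number was thus seen. These correlations cannot settle it, since control replicate 2 dominated the deviations under the control label (−0.73 with replicate 1 and −0.85 with replicate 3). With the replicate block, E2 decreases numbered 3, E2 increases 0 and USP increases 3. With the block and both trends removed, E2 decreases numbered 1, USP decreases 7 and USP increases 2.

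UBE2K changed sign with both trends removed (0.028), also with the replicate block (0.028) and without control replicate 2 (0.053). TRDMT1 was called with plain totals (0.80), by DESeq2 (0.65), on log2(RPKM + 1) (0.25) and log2(RPKM + 0.1) (0.66), with voom (0.66), with both trends removed (1.04) and with these removed without control replicate 2 (1.41). Leaving out control replicate 2 alone also gave a call (0.79), and values ranged from 0.45 to 0.79 when 1 library was left out.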
